A study of Mus musculus with 14 samples.

Results

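Calcium that enters a neuron or leaves its stores is read by a small set of proteins, and 10 genes of this set were followed here: Hpca and Calb1 (EF-hand calcium-binding proteins), Itpka (inositol-trisphosphate 3-kinase A), Camk2a, Camk2b, Camk4, Camkk1 and Camkk2 (kinases of the calmodulin-dependent family), and Ppp3ca and Ppp3r1 (subunits of the phosphatase calcineurin). Every probe set to which the platform table gives 1 symbol, and that symbol one of these genes, was taken. There were 18 such probe sets among the 22626 tested, and they stood for 9 of the 10 genes, of 12393 genes named on the array. Camkk1 was not analysed here, since no probe set used carried its symbol alone, and 1 further probe set, listed under both Ppp3r1 and another gene, was not used.

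The samples were 14 arrays of striatal total RNA, 7 from R6/2 mice and 7 from wild-type mice, on a background of CBA and C57BL/6, at 6 weeks of age by the series title. The R6/2 line, a fast-progressing model of Huntington disease, has a transgene made of human HTT exon 1 with an expanded CAG repeat under the human HTT promoter, beside the mouse's own Htt. Mice of both genotypes had been given normal saline 30 to 60 minutes before they were killed, as controls of a pair of drug studies. Titles that start with M.C marked 4 R6/2 and 4 wild-type arrays, and titles that start with Mith marked 3 and 3; these are called cohorts. Whether every array came from its own animal is not stated, so the spread behind each p-value is that of arrays and may be technical, and the number of arrays limits the precision.

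In the cytosol, calcium binds calmodulin, and calcium-loaded calmodulin switches on both kinases and calcineurin. Camk2a and Camk2b are the main neuronal subunits of CaM kinase II, which is concentrated at the postsynaptic density, while Camkk2 phosphorylates and activates Camk4, a largely nuclear kinase that acts on CREB. Calcineurin removes phosphates from proteins such as DARPP-32 and NFAT. In the striatum these enzymes work in the medium spiny projection neurons, where glutamate and dopamine signals meet.

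Values are log2 signals of a probe set, with all arrays brought to the same median. They can be compared between arrays for 1 probe set, not between probe sets. Differences are R6/2 minus wild-type on that scale, ± gives the SE of limma's fit with cohort as a term, and "called" means an adjusted p below 0.05 over all 22626 probe sets. Over both cohorts 2.55% of all probe sets were called, 2.19% lower in R6/2 and 0.362% higher. Arrays of bulk tissue cannot tell fewer cells of a type from less RNA per cell.

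A pair of arrays bear on several results. R6/2 replicate 4 correlated least with its own cohort, with a mean Spearman coefficient of 0.981, where the other 13 lay between 0.986 and 0.992. Wild-type replicate 5 was the only wild-type array below 0, at -0.16, in the mean of 8 striatal projection neuron markers, each centred on its own mean, while the highest wild-type array was at 0.56. The difference between the 3′ and 5′ Actb control probe sets, a measure of RNA degradation, averaged 0.61 ± 0.18 over the R6/2 arrays. Over the wild-type arrays it averaged 0.37 ± 0.14 (both SD, n = 7). It was largest in R6/2 replicate 2, at 0.85, and R6/2 replicate 4, at 0.28, was the lowest of the R6/2 arrays. Ppp1r1b, the gene of DARPP-32 and a defining marker of striatal projection neurons, was at 10.70 ± 0.29 (SD, n = 7) in wild-type and fell to 57.2% of that in R6/2 (-0.80 ± 0.13, adjusted p = 0.00437).

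Ppp3ca, a catalytic subunit of calcineurin, and Itpka fell in R6/2 striatum on all their probe sets, and of 8 probe sets of calmodulin-dependent kinases 3 fell. Of the 18 probe sets 7 fell, or 38.9%, and 0 rose. At an unadjusted p below 0.05, 13 were lower, against 9.53% of all probe sets. The falls belonged to 5 genes: Itpka, Camk2b, Camkk2, Camk4 and Ppp3ca. The difference was negative for 17 of 18 probe sets, against 45.2% of all probe sets tested, and the median was -0.41, against 0.01 over all probe sets. Hpca and Camk2a had larger differences than Camk2b with wider spreads and were not called, and neither Calb1 nor Ppp3r1 was called. Brighter probe sets prevailed among them, 14 of 18 against 50% of all by construction. Several probe sets measure the same gene, so the 18 are not independent. The members were chosen with earlier results of these data known. A count above the share over all probe sets may thus be partly built in. Counted by the brightest probe set of each gene, 4 of 9 genes fell, since the brightest Camk4 probe set was not the one that fell. A fit of 1 probe set per gene called 344 of 12393 genes in either direction, these 4 among them. In a fit that also held the Actb difference, limma called 0 of 18, where it called only 56 of all 22626 probe sets. Of the 18, 8 were below an unadjusted p of 0.05 and 16 were negative in that fit. The shares of all probe sets in that fit were not counted for these, so no excess can be read from them. The part of RNA quality in the falls was not tested further.

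**Figure D1:**
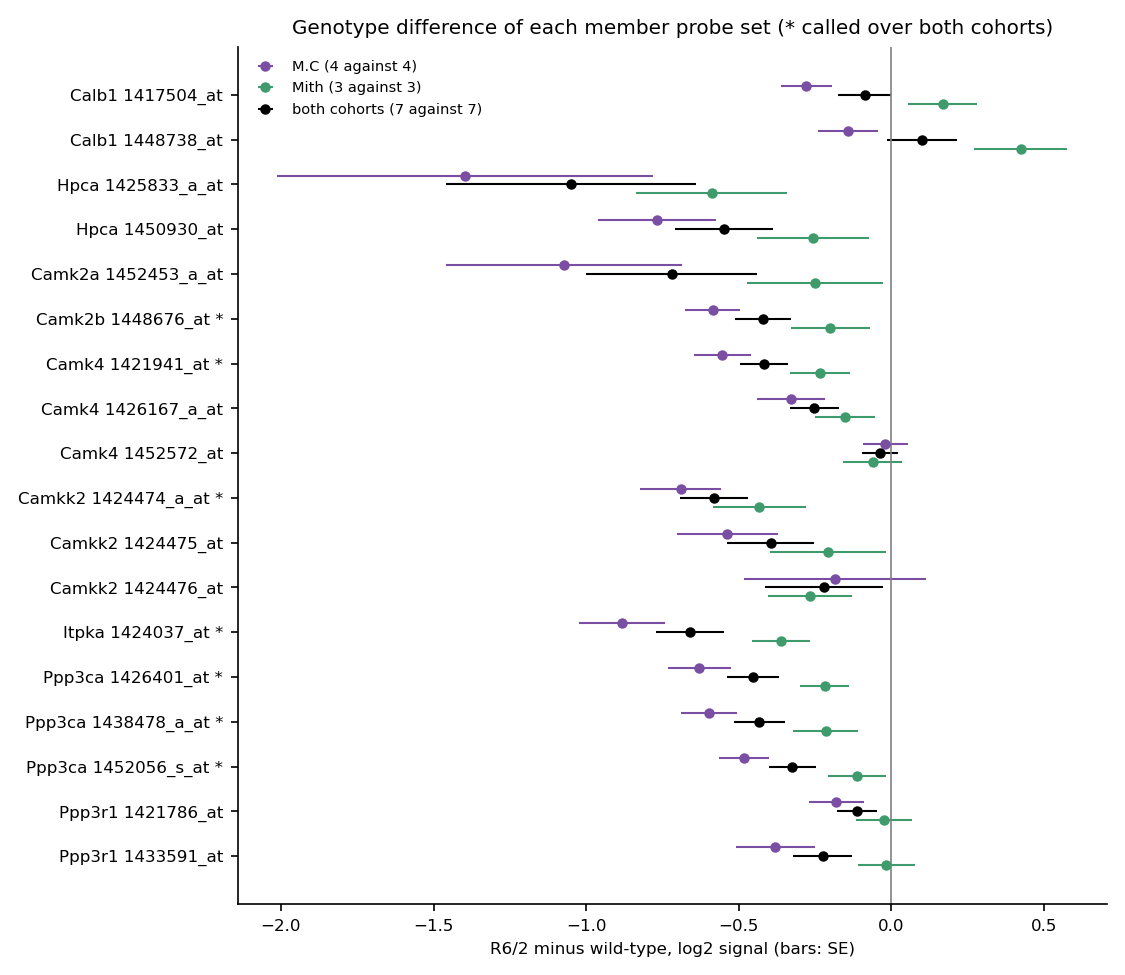
R6/2 minus wild-type in log2 signal (horizontal axis) for each of the 18 probe sets (vertical axis), as points with SE bars, within M.C, within Mith and over both cohorts; an asterisk marks a call over both. The M.C point lies below 0 for all 18, and the Mith point lies to the right of it for 16, the exceptions being Camk4 1452572_at and Camkk2 1424476_at.

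Itpka, which phosphorylates inositol trisphosphate and so removes the signal that opens calcium stores, and which also bundles actin in dendritic spines, fell to 63.3% of the wild-type signal. In M.C the R6/2 arrays were at 7.76, 8.35, 8.53 and 8.24 and the wild-type arrays at 9.08, 9.07, 8.96 and 9.30. In Mith they were at 8.15, 8.26 and 8.22 against 8.46, 8.54 and 8.73. No R6/2 array reached the lowest wild-type array of its own cohort, though R6/2 replicate 3 of M.C lay above the lowest wild-type array of Mith. The difference was -0.66 ± 0.11 (adjusted p = 0.00475), and it stayed called with any 1 array left out, between -0.71 and -0.56. Given the Actb difference as a covariate, it was -0.60 ± 0.15 (adjusted p = 0.109).

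The 250 bases before a gene's start, where general transcription factors assemble, are shown for a gene that fell, Itpka, and for one that was not called, Ppp3r1, so that the letters of both can be compared. They are read 5′ to 3′ on the gene's strand from RefSeq, build GRCm38.p6. The window for Itpka is chr2:119742087-119742336, plus strand, and that for Ppp3r1 is chr11:17159048-17159297, plus strand. Capitals mark matches on either strand to GGGCGG, the GC box bound by Sp1, and to TGACG, the core of the cyclic AMP response element that CREB binds.
Itpka: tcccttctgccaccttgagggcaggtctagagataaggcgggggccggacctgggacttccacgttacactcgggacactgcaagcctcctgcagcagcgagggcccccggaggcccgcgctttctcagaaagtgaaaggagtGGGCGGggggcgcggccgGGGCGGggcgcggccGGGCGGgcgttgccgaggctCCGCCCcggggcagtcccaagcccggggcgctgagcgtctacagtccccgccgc
Ppp3r1: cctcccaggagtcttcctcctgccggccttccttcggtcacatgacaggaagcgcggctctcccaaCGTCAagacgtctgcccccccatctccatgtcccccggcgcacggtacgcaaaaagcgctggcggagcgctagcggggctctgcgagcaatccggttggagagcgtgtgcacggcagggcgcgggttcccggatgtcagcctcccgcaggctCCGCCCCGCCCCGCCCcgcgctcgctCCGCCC
Both windows held 4 matches to GGGCGG, overlapping matches counted separately, and 4.09% of 32851 RefSeq windows of this length held 4 or more. Windows of annotated transcript starts were found for 5 of the 9 measured genes (Itpka, Hpca, Camkk2, Camk2b and Ppp3r1), 7 windows in all, of which 6 held GGGCGG, against 32.7% of all windows. The 2 windows shown were the only ones wholly before their gene. Those of Hpca and Camk2b, 4 in all, lay inside the gene, downstream of its first base, and that of Camkk2 lay partly inside it, with its 1 match in the inner part. The core TGACG was in 1 of the 7, that of Ppp3r1, against 17.8% of all windows. The full element TGACGTCA, of which TGACG is a part, was in 0 of 7 (1.55% of all windows). The Egr site GCGTGGGCG (0.536% of all windows) and TATAAA (12.4%) were in 0 of 7. A match describes letters only, and the called and the uncalled gene shown had equally many GC boxes.

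Of the CaM kinase II subunits, Camk2b fell to 74.7% of wild-type. Its R6/2 arrays in M.C were at 9.07, 9.08, 9.41 and 9.17 and the wild-type arrays at 9.93, 9.65, 9.74 and 9.76, and the genotypes did not overlap. In Mith they did overlap, with R6/2 at 9.19, 9.08 and 8.77 and wild-type at 9.03, 9.40 and 9.20. The difference was -0.42 ± 0.09 (adjusted p = 0.0204). The call was lost without R6/2 replicate 1 (-0.39, adjusted p = 0.0552), without R6/2 replicate 7 (-0.40, adjusted p = 0.0508), without wild-type replicate 3 (-0.41, adjusted p = 0.0524) and without wild-type replicate 4 (-0.41, adjusted p = 0.0517). In the Actb fit it was at -0.35 ± 0.12 (adjusted p = 0.260).

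Camk2a, the other main subunit, had a larger difference and a much wider spread. In M.C the R6/2 arrays were at 5.99, 5.42, 6.39 and 7.76 and the wild-type arrays at 7.86, 7.64, 7.11 and 7.24. R6/2 replicate 4 thus lay within the wild-type arrays and the other 3 lay below all of them. In Mith R6/2 was at 7.52, 7.63 and 6.59 and wild-type at 7.63, 7.44 and 7.42, with overlap. The difference was -0.72 ± 0.28 (adjusted p = 0.210), with a 95% interval from -1.31 to -0.13. Without R6/2 replicate 4 it was -0.93 ± 0.23 and called (adjusted p = 0.0373). The array order followed the Actb difference in M.C R6/2. There replicate 2 had the lowest Camk2a value and the largest Actb difference, and replicate 4 the highest value and the smallest difference. In Mith R6/2, replicate 7 had the largest Actb difference and the lowest Camk2a value. In wild-type the array with the largest Actb difference, replicate 1 in M.C and replicate 5 in Mith, had the highest Camk2a value instead. With group means removed, the correlation with the Actb difference over 14 arrays was -0.70 for Camk2a and 0.63 for Camk4. The part of RNA quality in the Camk2a difference was not tested. The Camk2a difference in the Actb fit was -0.08 ± 0.27 (adjusted p = 0.944). Relative to Camk2b, Camk2a differed by -0.30 between genotypes, exact permutation of genotype within cohorts p = 0.349 (two-sided, 1400 arrangements), adjusted p = 0.349 over 2 such contrasts, which were chosen after the values were seen.

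**Figure D2:**
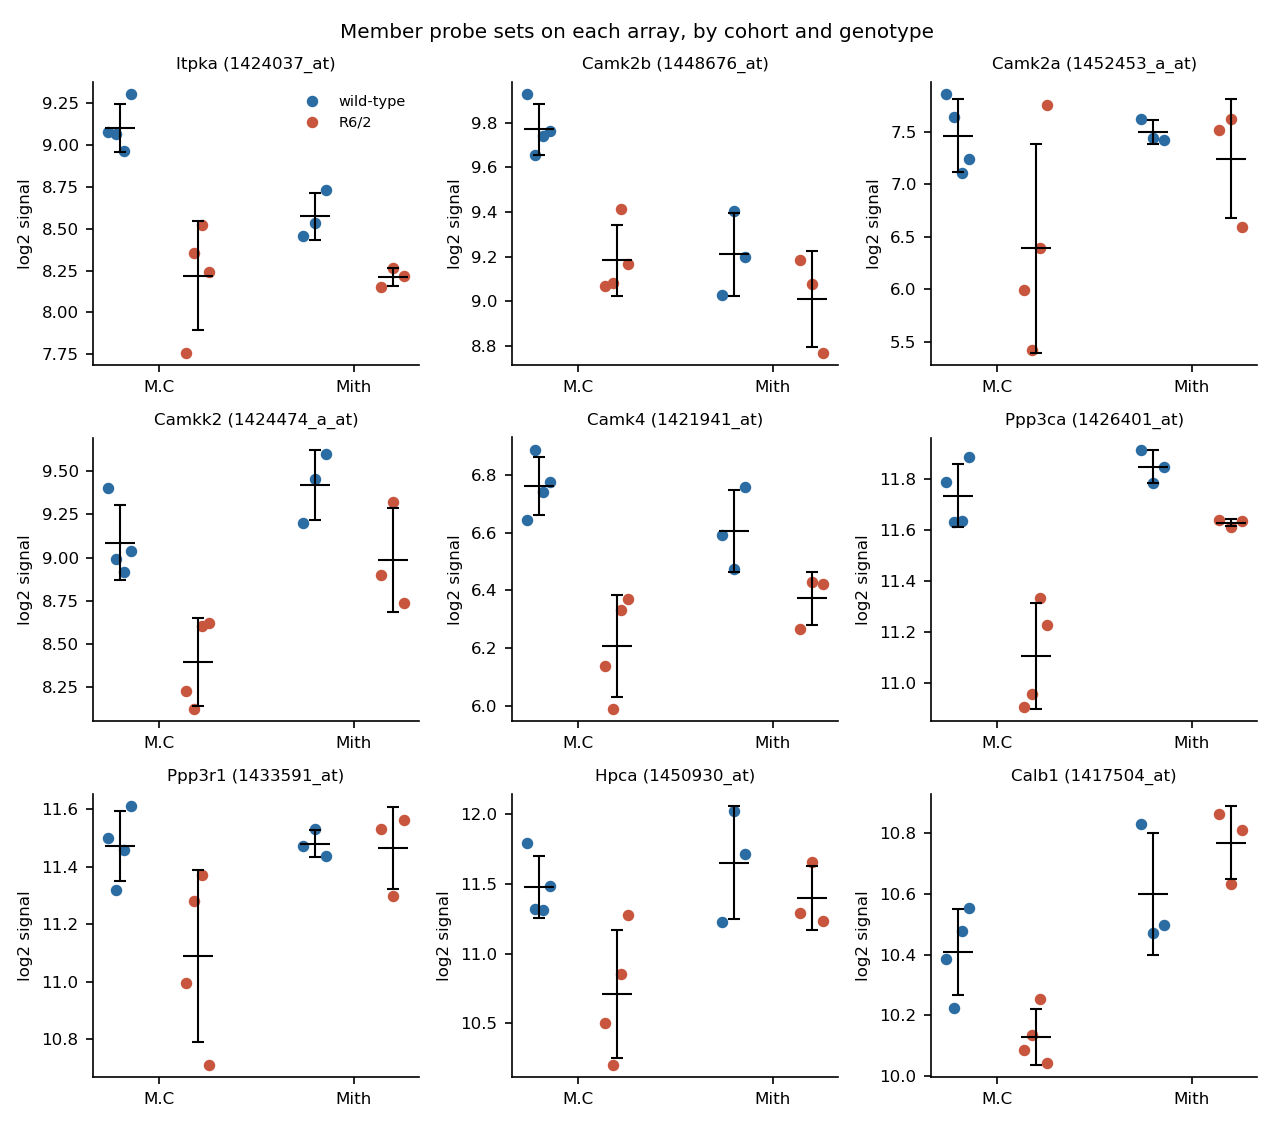
Log2 signal (vertical axis, range set per panel) on each array for the probe set with the lowest adjusted p of each of the 9 measured genes, M.C at left and Mith at right, wild-type in blue and R6/2 in red; black lines give the mean and SD of each genotype in a cohort. The probe sets shown for Itpka, Camk4 and Ppp3ca had R6/2 below wild-type without overlap in both cohorts, as 1.05% of all probe sets had. The other probe sets of Camk4 and Ppp3ca overlapped in Mith. For Camk2a a single R6/2 array of M.C, replicate 4 at 7.76, lay among the wild-type arrays.

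Camkk2, the kinase that activates Camk4 and AMP-activated kinase, fell to 66.9% of wild-type by its brightest probe set, 1424474_a_at. The R6/2 arrays were at 8.23, 8.13, 8.60 and 8.63 in M.C, below every wild-type array there (9.40, 8.99, 8.92 and 9.04). In Mith the values were 8.90, 9.32 and 8.74 against 9.20, 9.46 and 9.60, and R6/2 replicate 6 overlapped with wild-type. The difference was -0.58 ± 0.11 (adjusted p = 0.0109), and it was called with any 1 array left out. The other probe sets, 1424475_at and 1424476_at, were at -0.40 ± 0.14 (adjusted p = 0.165) and -0.22 ± 0.19 (adjusted p = 0.646). R6/2 replicate 4 had the highest value of all 14 arrays on 1424476_at, 6.66, and without it that probe set was at -0.42 and called (adjusted p = 0.0450). The probe set 1424475_at was called without wild-type replicate 5, at -0.50 (adjusted p = 0.0332). In the Actb fit the 3 probe sets were at -0.39 ± 0.13, -0.05 ± 0.13 and 0.22 ± 0.19, none of them called.

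Camk4, the kinase downstream of Camkk2, gave different answers by probe set. On 1421941_at the R6/2 arrays were at 6.14, 5.99, 6.33 and 6.37 in M.C and at 6.27, 6.43 and 6.42 in Mith. The wild-type arrays were at 6.64, 6.89, 6.74 and 6.78 in M.C and at 6.59, 6.47 and 6.76 in Mith. All 7 R6/2 arrays were below all 7 wild-type arrays, the only member probe set of which this was true, and 0.389% of all probe sets had this order. The difference was -0.42 ± 0.08, or 74.9% of wild-type (adjusted p = 0.00903), and it was called with any 1 array left out. The probe set 1426167_a_at was at -0.25 ± 0.08 (adjusted p = 0.114). The brightest, 1452572_at, was at -0.04 ± 0.06 (adjusted p = 0.818), with a 95% interval from -0.16 to 0.08. The called probe set was also dimmer than the median of all probe sets. The Actb fit gave -0.27 ± 0.08 (adjusted p = 0.233).

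Ppp3ca, the catalytic subunit of calcineurin that predominates in brain, fell on all 3 of its probe sets. On 1426401_at the R6/2 arrays were at 10.91, 10.96, 11.33 and 11.23 in M.C against 11.79, 11.63, 11.64 and 11.89 in wild-type. In Mith they were at 11.64, 11.61 and 11.63 against 11.91, 11.78 and 11.85. The genotypes did not overlap in either cohort. The differences were -0.45 ± 0.08 (adjusted p = 0.00848) on this probe set, -0.43 ± 0.08 (adjusted p = 0.0115) on 1438478_a_at and -0.32 ± 0.08 (adjusted p = 0.0301) on 1452056_s_at, so that the signal was at 73.0%, 74.1% and 79.9% of wild-type. The first 2 were called with any 1 array left out. The call on 1452056_s_at was lost without R6/2 replicates 1 or 2 or without wild-type replicates 1, 2, 3, 4 or 7, each left out alone, with adjusted p between 0.0582 and 0.0765. The Actb fit gave differences of -0.39 ± 0.11, -0.37 ± 0.11 and -0.28 ± 0.10, with adjusted p from 0.167 to 0.289.

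Ppp3r1, the calcium-binding regulatory subunit that pairs with Ppp3ca, was not called. On its brighter probe set, 1433591_at, R6/2 was at 10.996, 11.28, 11.37 and 10.71 in M.C and at 11.53, 11.30 and 11.56 in Mith. Wild-type was at 11.50, 11.32, 11.46 and 11.61 and at 11.47, 11.53 and 11.44. The genotypes overlapped in both cohorts, and R6/2 replicate 4 was the lowest array. The difference was -0.22 ± 0.10 (adjusted p = 0.273), and the other probe set was at -0.11 ± 0.07 (adjusted p = 0.451). In the Actb fit the brighter one was at -0.37 ± 0.11 (adjusted p = 0.228), further from 0 than without the covariate. In the contrast of Ppp3ca with Ppp3r1, Ppp3ca differed by -0.23 relative to its partner, -0.25 in M.C and -0.20 in Mith. The exact permutation p was 0.0571, or 0.114 adjusted over the 2 contrasts, so unequal change of the subunits was not shown.

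Hpca encodes hippocalcin, a neuronal calcium sensor that moves to membranes when it binds calcium, and is abundant in hippocampal and striatal neurons. Its brighter probe set, 1450930_at, was at 68.4% of wild-type. In M.C the R6/2 arrays, at 10.51, 10.21, 10.85 and 11.27, were below every wild-type array, at 11.79, 11.32, 11.31 and 11.48. In Mith they were at 11.29, 11.66 and 11.23 against 11.22, 12.02 and 11.71, and wild-type replicate 5 was the lowest of these 6. The difference was -0.55 ± 0.16 (adjusted p = 0.0805). It was called without R6/2 replicate 4, at -0.63 (adjusted p = 0.0338), and without wild-type replicate 5, at -0.66 (adjusted p = 0.0186).

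The other Hpca probe set, 1425833_a_at, had the largest difference of all members, with a wide spread. In M.C R6/2 was at 7.93, 6.32, 7.90 and 9.82 and wild-type at 10.67, 9.24, 9.07 and 8.59. R6/2 replicate 4 lay above 3 of the 4 wild-type arrays. The difference was -1.05 ± 0.41 (adjusted p = 0.214), and without that array it was -1.34 ± 0.36 (adjusted p = 0.0459). In the Actb fit the 2 Hpca probe sets were at -0.24 ± 0.17 and -0.09 ± 0.39. For these and for Camk2a the covariate moved the estimate more than for the 7 called probe sets, whose median went from -0.43 to -0.37 while their median SE went from 0.084 to 0.108.

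Calb1 encodes calbindin-D28k, a fast calcium buffer of striatal projection neurons. Its bright probe set, 1417504_at, was at 10.09, 10.14, 10.26 and 10.04 in R6/2 and 10.38, 10.22, 10.48 and 10.55 in wild-type of M.C. In Mith R6/2 was at 10.86, 10.63 and 10.81 and wild-type at 10.83, 10.47 and 10.50. The mean of R6/2 was lower in M.C and higher in Mith, with overlap in both. The difference was -0.28 in M.C, 0.17 in Mith and, over both cohorts, -0.09 ± 0.09 (adjusted p = 0.693), with a 95% interval from -0.27 to 0.10. The dim probe set 1448738_at was at 0.10 ± 0.11 (adjusted p = 0.737). Its M.C and Mith differences were -0.14 and 0.42.

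**Figure D3:**
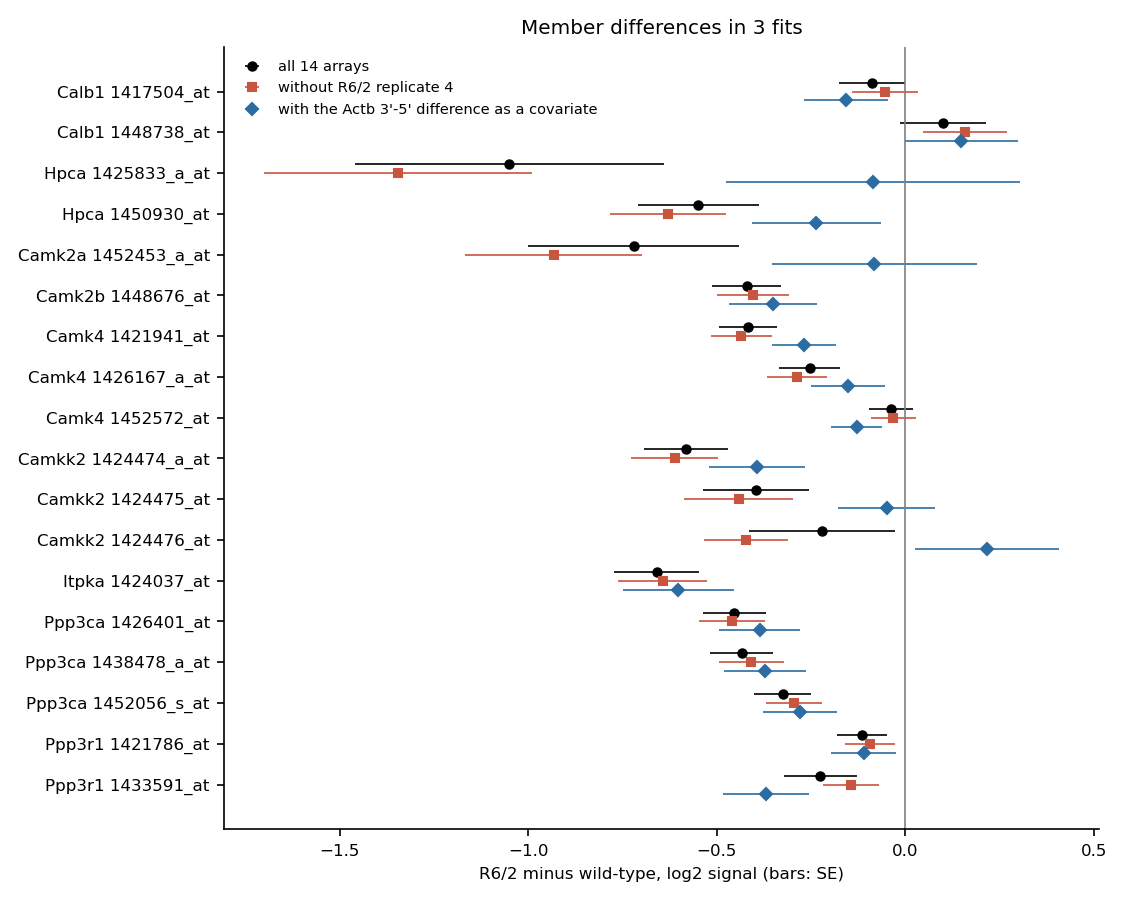
R6/2 minus wild-type in log2 signal with SE bars (horizontal axis) for the 18 probe sets (vertical axis) with all 14 arrays, without R6/2 replicate 4, and with a covariate for the Actb 3′ against 5′ signal. Itpka and Ppp3ca stay near their values in all 3 fits (Itpka from -0.66 to -0.60), while Camk2a runs from -0.93 to -0.08 and Hpca 1425833_a_at from -1.34 to -0.09.

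The differences were larger on average in the M.C cohort. There all 18 probe sets were negative (46.9% of all probe sets were), with a median of -0.55, and 7 fell, where 2.47% of all were called and 2.31% fell. At an unadjusted p below 0.05, 14 were lower, against 10.3% of all. The 7 that fell belonged to the same 5 genes as over both cohorts: Itpka at 54.2% of wild-type (-0.88 ± 0.14, adjusted p = 0.00896), Camkk2 (-0.69 ± 0.13, adjusted p = 0.0210), Ppp3ca at 64.6%, 66.1% and 71.5%, Camk2b at 66.6% and Camk4 at 68.1%. Every R6/2 array was below every wild-type array for 8 of the 18, against 6.33% of all probe sets. In Mith 16 of 18 were negative (49.6% of all were), with a median of -0.21. The same count, 16 of 18, was negative in both cohorts, against 24.8% of all. In Mith limma called 0 of 18, as it called 0% of all probe sets, and at an unadjusted p below 0.05 there were 5 lower and 1 higher, against 4.05% lower and 8.87% in either direction over all. The one with the lowest p, Itpka, was at 77.8% of wild-type (-0.36 ± 0.09, adjusted p = 0.338). Itpka, Camk4 1421941_at and Ppp3ca 1426401_at were the 3 probe sets whose genotypes did not overlap within Mith, where 6.34% of all probe sets had that order. The same 3 kept that order in both cohorts, against 1.05%.

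The effect itself was then compared between cohorts. The interaction was negative, a larger fall in M.C, for 16 of 18 probe sets, against 50.3% of all. It was called by limma for 0 of 18 and for 0% of all probe sets, and 8 of 18 were below an unadjusted p of 0.05, against 9.78%. The lowest p belonged to Calb1 1417504_at, at -0.45 ± 0.14 (adjusted p = 0.355). For Itpka the interaction was -0.52 ± 0.19 (adjusted p = 0.414), and for Ppp3ca 1426401_at it was -0.41 ± 0.14 (adjusted p = 0.381). A difference of effect between the cohorts was therefore not shown for any member.

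The level of the members also differed between the cohorts, with genotype as a term. Of 18 probe sets 9 were called between M.C and Mith, where 32.3% of all probe sets were, 5 of them lower in M.C and 4 higher. Probe sets of Ppp3ca went opposite ways. For Ppp3ca, M.C minus Mith was -0.32 ± 0.08 on 1426401_at and -0.37 ± 0.08 on 1452056_s_at but 0.24 ± 0.08 on 1438478_a_at, all 3 called (adjusted p = 0.00858, 0.00156 and 0.0399). Camk4 was called only on 1426167_a_at, at 0.43 ± 0.08 (adjusted p = 8.59e-04). It was at -0.01 ± 0.08 on 1421941_at and at 0.15 ± 0.06 on 1452572_at. Calb1 1417504_at was at -0.41 ± 0.09 (adjusted p = 0.00194), while Camk2b was at 0.37 ± 0.09 (adjusted p = 0.00595). The cohort differences therefore give no direction for Ppp3ca as a gene, whereas its genotype differences had 1 sign on all 3 probe sets. Markers of other cells also differed between the cohorts. All 8 mature oligodendrocyte markers were lower in M.C, with a median of -0.82 and the largest difference for Ugt8a, at -1.06 ± 0.11, and 5 of 7 thalamic markers were lower, with a median of -0.99 and Rora at -1.31 ± 0.16. Striatal interneuron markers went both ways: of 8, 2 were lower in M.C, Calb2 among them at -0.94 ± 0.17, and 3 were higher. Their median was 0.14. Of the striatal projection neuron markers 1 of 8 was lower and 1 higher. The part of these cells in the members' cohort differences was not tested.

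Markers of the cells that could carry these transcripts were read on the same arrays. Of 8 measured markers of striatal projection neurons 6 fell, with a median of -0.71 (-0.84 in M.C and -0.38 in Mith). Of the 8, 7 were negative, as most members were. Tac1 was not, at 0.07 ± 0.10 (adjusted p = 0.787) over both cohorts, -0.09 in M.C and 0.29 in Mith. The part of these markers in the members' falls was not tested. Cortical and hippocampal glutamatergic neurons also express Camk2a, Camk2b, Hpca and Itpka strongly. Of 9 markers listed for those neurons 5 were measured. Of these 5 limma called 0, 1 was below an unadjusted p of 0.05, and their differences ran from 0.04 to 0.23. Only Neurod2 was brighter than the median of all probe sets. Neurod6 and Tbr1 had wild-type means of 3.77 and 3.60, where the lowest deposited value was 2.96. A change in these cells could therefore have been missed. The astrocyte list had 0 of 9 called (4 at an unadjusted p below 0.05), microglia 0 of 8 (3), thalamic neurons 0 of 7 (3) and choroid plexus 0 of 3 (0). Striatal interneurons had 4 of 8 falls, with a median of -0.32, and mature oligodendrocytes 5 of 8, also with a median of -0.32. Within Mith all 7 thalamic markers were negative, from -1.26 (Prkcd) to -0.11 (Lhx9), with a median of -0.66, against -0.06 in M.C. In Mith limma called 0 of these 7, and 5 were below an unadjusted p of 0.05. Oligodendrocyte markers had cohort medians of -0.33 (M.C) and -0.40 (Mith), and interneuron markers of -0.36 and -0.20. The part of these cells in the members' differences, in either cohort or between cohorts, was not tested. For the cortical and hippocampal list the summed level, as a mean deviation per array, ran from -0.04 to 0.19 in R6/2 and from -0.17 to 0.05 in wild-type. With that level as a covariate 144 of all 22626 probe sets were called. Among them were 4 member probe sets, those of Itpka (-0.76), Camkk2 (-0.69), Ppp3ca 1426401_at (-0.55) and Camk4 1421941_at (-0.50). The level rests mostly on dim probe sets, so it may follow cortical content poorly.

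Other genes of the pathway were read next. Of 70 further genes measured, from lists chosen with earlier results of these arrays known, 13 fell and 0 rose, where 2.19% of all probe sets fell, and the median was -0.08. The EF-hand and calmodulin-binding list had 5 falls among 26 genes. Kcnip2, an EF-hand partner of potassium channels, fell by 0.95 ± 0.18, although its other probe set was at -0.02. Pcp4, a small protein that binds calmodulin, and its relative Pcp4l1 fell by 0.45 ± 0.11 and 0.37 ± 0.09. Necab2, an EF-hand protein of striatal neurons, fell by 0.34 ± 0.07, and Kcnip1 fell by 0.23 ± 0.06, with other probe sets up to 0.15. Nrgn, the postsynaptic calmodulin store, was at -0.26 ± 0.11 (adjusted p = 0.279).

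Among 10 other CaM kinase genes 2 fell: Camkv, a kinase-like protein that binds calmodulin, by 0.47 ± 0.11, and Dclk1, a doublecortin-like kinase, by 0.41 ± 0.10. Camk2d and Camk2g, the remaining CaM kinase II subunits, were at -0.14 ± 0.07 (adjusted p = 0.383) and 0.04 ± 0.07 (adjusted p = 0.842). Of 15 calcineurin subunits, regulators and substrates 2 fell: Ppp1r1a, inhibitor 1 of protein phosphatase 1 and a calcineurin substrate, by 0.35 ± 0.06, and Rcan2, a calcineurin inhibitor, by 0.28 ± 0.07. The other catalytic subunits, Ppp3cb and Ppp3cc, were at -0.04 ± 0.07 (adjusted p = 0.839) and 0.20 ± 0.06 (adjusted p = 0.0969), so Ppp3ca was the catalytic subunit that passed the test. In the remaining lists the falls were Plcb4, a phospholipase C that makes inositol trisphosphate, by 0.39 ± 0.09 (1 of 7 genes), Hdac5, a deacetylase that CaM kinases send out of the nucleus, by 0.28 ± 0.07 (1 of 6), and, among 6 enzymes regulated by calmodulin, the phosphodiesterase Pde1b by 0.69 ± 0.12 and the nitric oxide synthase Nos1 by 0.32 ± 0.08. The transcription factor Creb1 was at -0.02 ± 0.05 (adjusted p = 0.912).

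**Figure D4:**
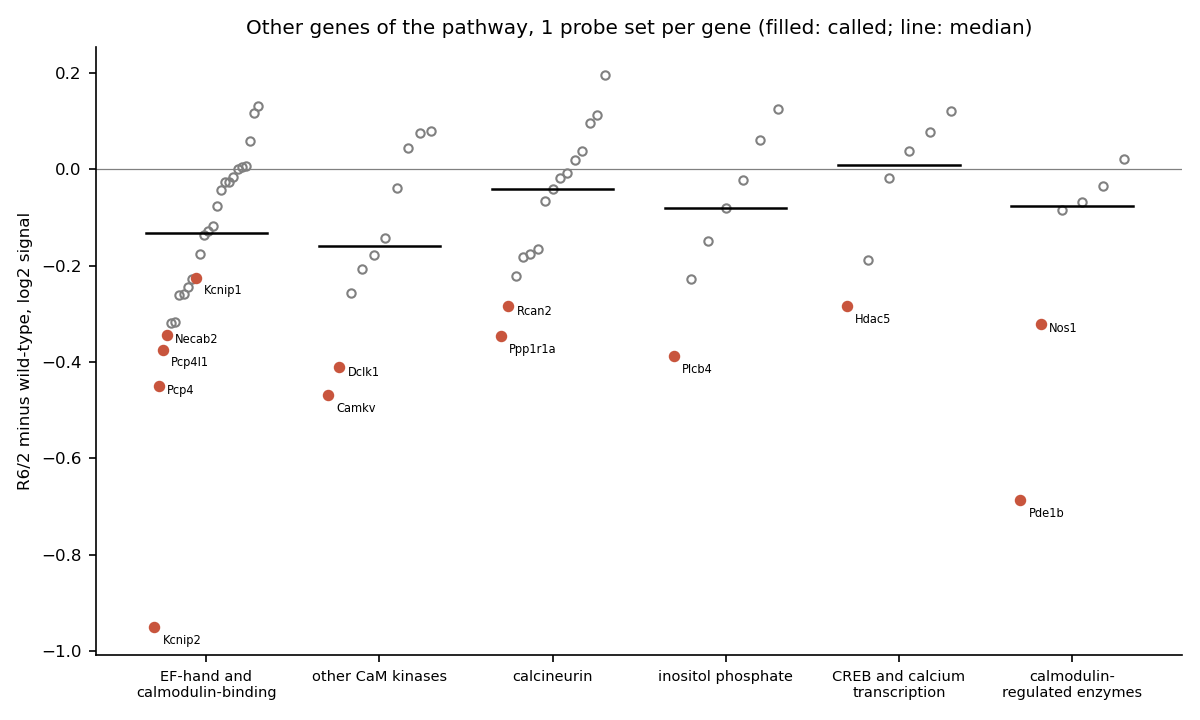
R6/2 minus wild-type in log2 signal (vertical axis) of the brightest probe set of 70 other genes in 6 pathway lists (horizontal axis); filled points are called, open points are not, and the line is the list's median. The 13 filled points all lie below 0, from -0.95 for Kcnip2 to -0.23 for Kcnip1.

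The calls of Kcnip2, Pde1b, Ppp1r1a and Necab2 held with any 1 array left out. Those of the other 9 genes were lost in 7 to 10 of 14 such fits, with adjusted p up to 0.115 (Nos1). In the Actb fit, which called 56 of all 22626 probe sets, none of the 13 was called. All 13 were negative, and the adjusted p ran from 0.0680 (Ppp1r1a) to 0.369 (Dclk1). The share of all probe sets that were negative in that fit was not counted.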

How the data were processed

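The authors' deposited values were log2 probe set signals, 1 per probe set and array, read as log2 from their range (2.96 to 14.5). The software, normalization and array version are not given in the sources used here. Of 22690 probe sets 64 controls were left out. Array medians ran from 7.07 to 7.17, so each array was centred on their median. Probe sets were named from GEO's platform annotation, with symbols updated through gene IDs in RefSeq: 20380 probe sets had 1 symbol, 691 several and 1555 none. A gene's representative was its brightest probe set, passing over IDs ending in _x_at.

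Genotype was tested with limma 3.58.1 (R 4.3.3; lmFit and eBayes, two-sided), with cohort as a term, and p-values were adjusted by Benjamini-Hochberg over 22626 probe sets. Each cohort alone and the interaction were fitted too. The code was checked on simulated data. Members and lists were chosen with earlier results of these data known. All members were named, and every called gene of the other lists. Alternatives covered centring, model terms, variance priors, array weights, a brightness filter, probe set choice, the threshold, an Actb and a cortical covariate, and each array left out. Promoter windows came from RefSeq, build GRCm38.p6, and partner genes were compared by exact permutation.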

Additional observations from a re-analysis of the deposited data

Results flagged for a closer look

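A pair of values stood far from the others of their group, both on the Ppp3ca probe set 1438478_a_at among the 4 arrays of a genotype in M.C. Wild-type replicate 2 was at 11.33, where the next lowest wild-type array was at 11.53. R6/2 replicate 3 was at 11.15, where the next highest R6/2 array was at 10.83. In all, 72 groups of 4 or 7 arrays were examined in this way, and chance flags about 1 in 20. The fall of this probe set was called without either array, and the genotypes did not overlap in M.C.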

How the results depend on the processing

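All 18 member probe sets kept their direction and their side of the threshold on the values as deposited, after quantile normalization and with trended or robust variances. Of the 7 member calls, 2 remained with no cohort term, 4 with the cortical marker covariate, 3 at a threshold of 0.01 and 0 with the Actb covariate. With 1 probe set per gene only 4 of the 7 were tested, and all 4 stayed called. Averaging over probe sets was done for 6 genes. Of these, 3 kept their result, 1 lost a call, 1 gained a call and 1, Calb1, changed sign. With array weights there were 10 member calls. With 1 array left out the number ran from 5 to 11, the 11 being without R6/2 replicate 4. Signs turned for 4 uncalled probe sets: Camkk2 1424476_at (0.22 with the Actb covariate), Camk4 1452572_at (0.0016 with the cortical covariate), Calb1 1448738_at (-0.14 in M.C alone) and Calb1 1417504_at (0.17 in Mith alone, and 0.0069 for the mean of its probe sets). The cause was not tested.

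Over all probe sets the 578 calls became 100 with no cohort term, 1333 with array weights, 56 with the Actb covariate, 144 with the cortical covariate, 131 at a threshold of 0.01 and 344 with 1 probe set per gene, where fewer were tested, and ran from 280 to 879 with 1 array left out. In M.C the 558 calls became 371 after quantile normalization and ran from 242 to 962 with 1 array left out. The count ran from 0 to 13 in Mith, from 0 to 7 for the interaction and from 5995 to 7708 (7312 with all arrays) for M.C against Mith. Among the 13 other pathway genes called, quantile normalization ended the calls of Hdac5, Kcnip1, Nos1 and Rcan2, the values as deposited that of Kcnip1 (-0.21, adjusted p = 0.0725), a trended variance that of Pcp4 and array weights that of Pcp4l1. Leaving out the cohort term ended 10 of the 13 and the cortical covariate 11. No paired analysis was possible because replicate numbers were given in record order and link no R6/2 array to a wild-type array. No detection calls were used, so dim probe sets could not be told from background.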

Other observations

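Genes whose array pattern was most like that of a member were looked for over the 14 arrays, after the mean of each genotype in each cohort was removed. These are descriptions, and the arrays share their hybridisation and RNA quality. Closest to Itpka were Strn, a calmodulin-binding scaffold of dendritic spines (Pearson r = 0.95), Septin11 (0.92) and Gabrd, a GABA-A receptor subunit (0.89). Strn and Gabrd themselves fell in R6/2, by 0.76 ± 0.11 (adjusted p = 0.00170) and 0.74 ± 0.10 (adjusted p = 0.00152). Closest to Hpca 1450930_at were Car11 (0.95), the potassium channel gene Kcnj4 (0.93) and Plppr4 (0.92), of which Car11 and Kcnj4 fell, by 0.45 ± 0.11 and 0.48 ± 0.12. Closest to Camk2a were Gpr27 (0.97), the kinesin gene Kif5a (0.94) and Vegfa (0.94), none of them called. For the remaining members the closest genes were Mat2b (Ppp3r1, 0.96), Cmtm2a (Camk4, 0.95), Gsk3a (Camk2b, 0.92), Plppr4 (Camkk2, 0.90), Nat9 (Calb1, 0.89) and Epb42 (Ppp3ca, 0.87). None of these was called either. All these genes were picked for the highest r among the other genes of the array, so high values are partly built in. Among the members themselves the pair most alike was Hpca and Camkk2 (0.85), and Camk2a and Ppp3r1 were most opposed (-0.68).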
